A study of Mus musculus with 18 samples.

Results

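Rupture of the anterior cruciate ligament (ACL) by a single mechanical load destabilises the knee and starts a degeneration of its cartilage. The comparison described here asked for which microRNAs (miRNAs) the difference between the injured and the uninjured knee was not the same at day 7 as at day 1. It was measured as an interaction, the log2 fold change of ACL rupture versus contralateral cartilage at day 7 minus the same log2 fold change at day 1. A log2 interaction of 2 thus means that the ratio of injured to uninjured cartilage was 4-fold higher at day 7 than at day 1. The interaction compared 12 of the 18 libraries of the series, 3 in each of 4 groups, while all 18 were fitted together. It was tested for 428 of the 1412 miRNAs in the table, those that passed a filter on low counts.

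All mice were C57bl6, and the study's methods give them as male C57Bl/6J mice aged 12 weeks at the load. The right knee was loaded until its ligament ruptured (groups day 1 ACL and day 7 ACL), and the unloaded left knee of the same mice served as its control (day 1 contralateral and day 7 contralateral). A further group of 6 naive libraries came from mice without any load and is used here for the level in untreated cartilage. It also entered the filter, the scaling and the shared estimate of spread. The labels give all 6 as day 7, so there is no naive group for day 1. Left and right knees of naive mice were pooled apart, so naive libraries can share mice. The methods give isoflurane anaesthesia for the load and buprenorphine at the start of the experiment. Femoral condyle cartilage caps were pooled from several mice for each library. GEO's design text gives the same pool size for every sample, while the scheme in the study's supplement gives larger pools at day 7 than at day 1, because part of the cartilage was lost by then. ACL and contralateral libraries of a day thus come from the same mice, but the labels do not say which libraries belong together. Libraries were therefore treated as independent without this pairing. The p-values measure only the spread between libraries of a group, estimated over all 5 groups together, including naive libraries that can share mice. The contralateral knee belonged to an injured mouse.

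miRNAs are short RNAs that guide the silencing of messenger RNAs. Target choice rests mainly on the seed, bases 2 to 8 from the 5′ end, and 2 mature arms, 5p and 3p, can be cut from each hairpin. Many miRNAs are transcribed together as clusters. The largest cluster met below lies in the imprinted Dlk1-Dio3 region on the distal part of chromosome 12 (band 12qF1), where noncoding transcripts of the maternal chromosome (Meg3, the transcript antisense to Rtl1, Rian and Mirg) carry the hairpins. In cartilage the best known miRNA is miR-140, which chondrocytes depend on for normal growth of the skeleton.

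At day 7 the injury effect exceeded that of day 1 for 29 miRNAs (6.78% of those tested, limma adjusted p under 0.05), and for no miRNA was it called smaller. Of the 29, 21 belonged to the 12qF1 cluster, 3 to the miR-34 family and 2 were the arms of miR-335, and the others were miR-31-5p, miR-199a-5p and miR-21a-5p. Their log2 interaction ranged from 1.40 to 4.88 with a median of 2.36, against a median of 0.02 over all 428 miRNAs. At an unadjusted p under 0.05 there were 70 miRNAs (16.4%), 57 positive and 13 negative. The edgeR quasi-likelihood test called 25 miRNAs and the DESeq2 Wald test 28, again with no negative call.

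The mature sequences of the miRNAs that carried these differences are given from RefSeq (GRCm38.p6), with the seed in capitals. A mature sequence was matched for 365 of the 428 miRNAs and for 28 of the 29 called. The first set shows the miR-379 family of 12qF1, whose 3p arms resemble each other.
miR-379-3p: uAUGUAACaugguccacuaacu
miR-411-3p: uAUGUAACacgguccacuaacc
miR-380-3p: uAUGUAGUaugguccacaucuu
The 3p arms of miR-379 and miR-411 had the same seed and differed at 2 of 22 positions, whereas miR-380-3p differed from miR-379-3p at 6 positions, 2 of them in the seed. The second set shows a further look-alike pair of the cluster and its other leading members.
miR-300-3p: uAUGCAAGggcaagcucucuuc
miR-381-3p: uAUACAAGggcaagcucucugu
miR-134-5p: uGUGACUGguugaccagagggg
miR-541-5p: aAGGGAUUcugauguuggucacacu
miR-382-5p: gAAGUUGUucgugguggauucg
miR-431-5p: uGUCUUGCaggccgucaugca
miR-410-3p: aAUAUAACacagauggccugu
miR-300-3p and miR-381-3p differed at 3 of 22 positions, 1 of them in the seed. The third set shows the called miRNAs outside the cluster except miR-34c-5p, which had no matched sequence, with 2 uncalled members of the miR-34 family beside them because they share a seed with a called arm.
miR-335-3p: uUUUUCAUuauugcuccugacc
miR-335-5p: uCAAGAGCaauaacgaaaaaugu
miR-34b-3p: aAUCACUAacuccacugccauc
miR-34c-3p: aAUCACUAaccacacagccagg
miR-34b-5p: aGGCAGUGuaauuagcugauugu
miR-34a-5p: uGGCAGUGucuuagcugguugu
miR-31-5p: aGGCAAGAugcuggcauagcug
miR-21a-5p: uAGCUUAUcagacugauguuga
miR-199a-5p: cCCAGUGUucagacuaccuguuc
The 28 called miRNAs with a sequence carried 27 different seeds, and the only seed that 2 of them shared was AUGUAAC of miR-379-3p and miR-411-3p. The seed of the remaining call, miR-34c-5p, was not available here, so any seed it shares with another miR-34 arm is not counted. Where a called and an uncalled miRNA shared a seed, their interactions were 3.66 and 3.14 for miR-34b-3p and miR-34c-3p, 2.57 and 0.71 for miR-34b-5p and miR-34a-5p, and 1.41 and 0.01 for miR-329-3p and miR-362-3p. Of the called, 15 were 5p and 14 were 3p arms, their median GC content was 45.5% against 47.8% over the 365 with a sequence, and 50.0% began with U against 41.4%.

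Total counts in the 12 libraries lay between 758388 in day 7 ACL replicate 1 and 4088852 in day 7 contralateral replicate 2, and 604 to 859 miRNAs had at least 1 count. Abundance is given as CPM, each count relative to its library's total after TMM scaling. The miRNAs miR-140 and miR-455, which mark chondrocytes, summed to between 5029 and 10159 CPM in the 12 libraries, while the skeletal muscle miRNAs (miR-1, miR-133, miR-206, miR-208 and miR-499) summed to between 62206 and 313607 CPM, although the labels name chondrocytes. The source of these reads was not tested. In bulk tissue, fewer cells of a type and less RNA per cell cannot be told apart. Day 7 contralateral replicate 1 stood apart, with a mean distance of 24.1 to the other libraries of its group on the log2 scale over all tested miRNAs, against 9.46 to 19.8 in the remaining 17 libraries. The next was day 1 ACL replicate 2 at 19.8. Without the first, 32 miRNAs were called in the interaction, 28 of them among the 29, without the second 28, and without both 33, of which 27 were among the 29 and 3 were negative.

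The 29 calls were also read in the 4 pairwise contrasts that make up the interaction. At day 7, the log2 fold change of ACL versus contralateral was positive for each of the 29, from 1.21 to 4.09 with a median of 2.24. At day 1 it lay between -1.23 and 0.44 with a median of -0.06, 11 positive and 18 negative. Between the days, the 29 rose in ACL cartilage by 1.27 to 4.25 log2 units (median 2.07). In contralateral cartilage they moved by between -1.35 and 0.31 (median -0.22), 6 up and 23 down, against 187 up and 241 down over all tested. A fall in the contralateral knees thus entered the interaction of most calls. These contrasts share libraries with the interaction and are given as its parts. All 29 passed the test at day 7 (limma adjusted p at most 0.00407), and in neither day 1 ACL versus contralateral nor day 7 versus day 1 contralateral did any of them pass it (lowest limma adjusted p 0.997 and 0.750).

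**Figure D1:**
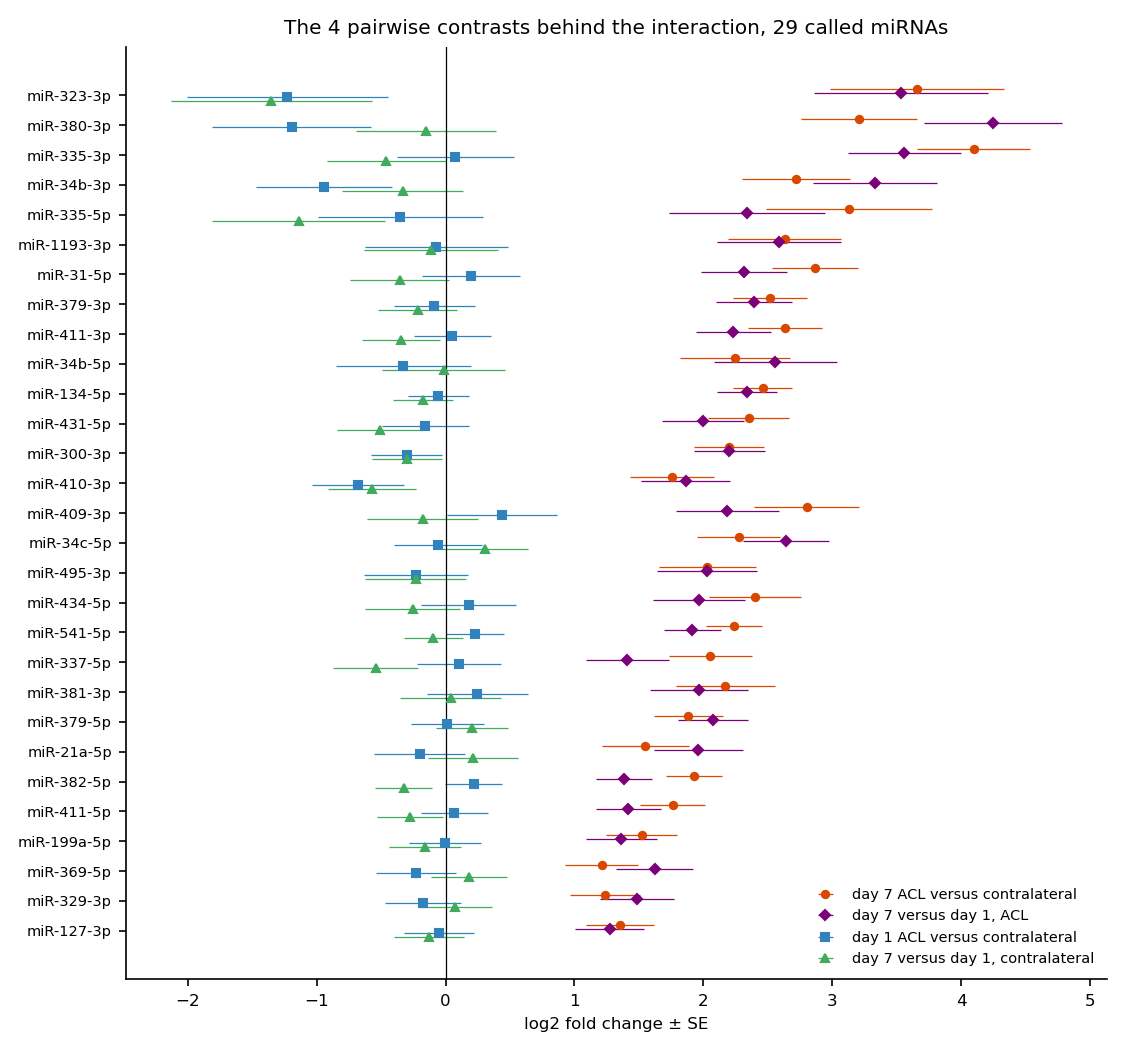
Log2 fold change ± SE (x axis) of the 29 miRNAs called in the interaction (rows, by size of the interaction) in each of the 4 pairwise contrasts. The day 7 injury effect and the rise of ACL cartilage between the days sit at 1.21 and above. The day 1 injury effect lies between -1.23 and 0.44, and the change of contralateral cartilage between -1.35 and 0.31, below 0 for 23 of the 29.

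Over all miRNAs, 63 passed the test in day 7 ACL versus contralateral (14.7%, 59 higher and 4 lower, or 13.8% and 0.935%) and 67 in day 7 versus day 1 ACL (15.7%, 52 higher and 15 lower, or 12.1% and 3.5%). None passed in day 1 ACL versus contralateral or in day 7 versus day 1 contralateral with limma, where 8 (1.87%) and 25 (5.84%) had an unadjusted p under 0.05 and where DESeq2 called 0 and 2. The interaction adds the errors of 4 group means, and its median SE was 0.53 log2 units against 0.37 for the day 7 contrast, so it calls fewer miRNAs at the same size of difference. For 51 of the 428 the 95% interval of the interaction lay within 1 log2 unit of 0 on either side, that is within a 2-fold difference between the days. For 348 uncalled miRNAs it did not, and a 2-fold difference between the days was not excluded for them.

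**Figure D2:**
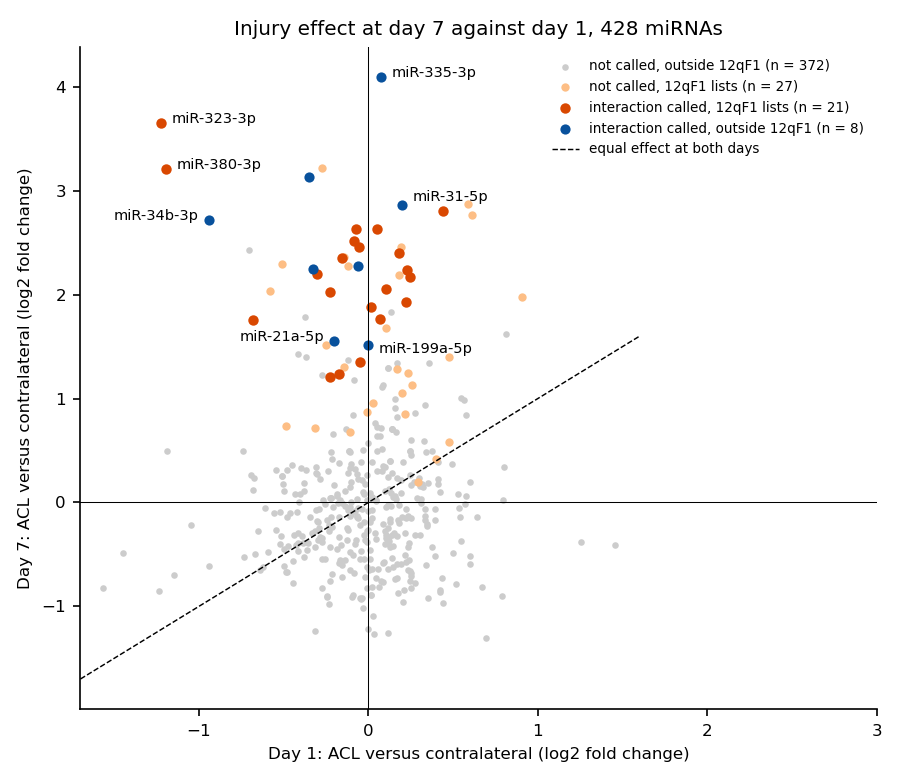
Log2 fold change of ACL versus contralateral cartilage at day 1 (x axis) and day 7 (y axis) for the 428 miRNAs tested, with those called in the interaction in dark colours and 12qF1 members in orange. The 29 called miRNAs stand above the dashed line of equal effect, at day 7 values of 1.21 or more and day 1 values between -1.23 and 0.44.

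The strongest test in the interaction was that of miR-134-5p, a brain-enriched miRNA of the 12qF1 cluster known for its role in dendrites. It stood at 199, 249.8 and 239 CPM in the 3 day 7 ACL libraries and at 57.7, 34.96 and 37.0 in day 7 contralateral libraries. At day 1 it stood at 44.9, 47.7 and 42.8 CPM in ACL and at 41.4, 49.9 and 49.6 in contralateral libraries. The day 7 ACL libraries thus stood alone, and the other 3 groups lay within the naive range of 43.0 to 56.2 CPM but for day 7 contralateral libraries on either side of it and 2 day 1 libraries just under it. The log2 interaction was 2.52 ± 0.33 (SE, limma adjusted p = 0.000114), a 5.72-fold higher injury ratio at day 7.

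miR-541-5p was the most abundant of the leading 12. It stood at 1808, 1758 and 1927 CPM in day 7 ACL libraries, 380.5, 390.3 and 395 in day 7 contralateral, 545, 467 and 451 in day 1 ACL and 461, 362 and 429 in day 1 contralateral libraries. The gap between day 7 ACL and every other library was wide compared with the spread inside each group. Its interaction was 2.01 ± 0.31 (limma adjusted p = 0.000396).

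miR-300-3p stood at 338, 398 and 411 CPM in day 7 ACL libraries, at 75.5, 79.8 and 94.4 in day 7 contralateral, 104, 69.5 and 77.7 in day 1 ACL and 129, 83.0 and 99.8 in day 1 contralateral libraries. At day 1 the groups overlapped. The interaction was 2.50 ± 0.39 (limma adjusted p = 0.000396).

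The 3p arms with the shared seed moved alike. miR-411-3p stood at 162, 178 and 171 CPM in day 7 ACL and at 15.8, 31.3 and 37.0 in day 7 contralateral libraries, and at day 1 at 38.1, 39.4 and 31.6 in ACL and 44.9, 28.7 and 32.8 in contralateral libraries. miR-379-3p stood at 109, 124 and 105 CPM in day 7 ACL and at 12.4, 20.6 and 26.6 in day 7 contralateral libraries, and at day 1 at 30.3, 17.6 and 17.5 in ACL and 24.2, 17.5 and 28.8 in contralateral libraries. Their interactions were 2.58 ± 0.42 and 2.61 ± 0.43. As the sequences differ at 2 positions only, and how reads matching several mature sequences were counted is not given in the sources used here, some reads could stand under the wrong arm of the pair.

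miR-380-3p stood at 23.4, 27.6 and 35.5 CPM in day 7 ACL libraries and at 3.43, 2.87 and 2.91 in day 7 contralateral ones. At day 1 it stood at 2.61, 0 and 2.92 CPM in ACL libraries, where a count of 0 in replicate 2 allows up to 2.51 CPM, and at 5.42, 2.55 and 2.68 in contralateral libraries. The interaction of 4.40 ± 0.76 (limma adjusted p = 0.000781) was in part set by that library, and without it was 3.52 ± 0.63. The largest interaction of all, 4.88 ± 1.03 for miR-323-3p (limma adjusted p = 0.00371), rested on even fewer reads. There were 16, 19 and 36 counts in day 7 ACL libraries, 0, 4 and 5 in day 7 contralateral, 2, 0 and 4 in day 1 ACL and 2, 7 and 7 in day 1 contralateral libraries. Without day 1 ACL replicate 2 its value was 4.26 ± 1.05 and without day 7 contralateral replicate 1 it was 4.29 ± 1.01. Of the 29, 7 had fewer than 10 counts in at least 1 of the 12 libraries, and in 2 of them, miR-323-3p and miR-380-3p, a library had none.

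miR-382-5p had the smallest error of the 29. It stood at 250.0, 222 and 239 CPM in day 7 ACL, 65.2, 69.7 and 52.8 in day 7 contralateral, 82.0, 99.7 and 90.9 in day 1 ACL and 86.3, 73.1 and 74.4 in day 1 contralateral libraries, with an interaction of 1.71 ± 0.31 (limma adjusted p = 0.00116). miR-431-5p stood at 53.6, 66.1 and 58.1 CPM in day 7 ACL, 6.87, 16.2 and 11.6 in day 7 contralateral, 13.6, 11.7 and 18.9 in day 1 ACL and 13.8, 19.7 and 16.1 in day 1 contralateral libraries, with an interaction of 2.51 ± 0.46 (limma adjusted p = 0.00116). miR-410-3p stood at 39.8, 38.9 and 46.2 CPM in day 7 ACL, 22.7, 8.87 and 10.8 in day 7 contralateral, 10.4, 13.4 and 10.7 in day 1 ACL and 21.7, 14.9 and 19.4 in day 1 contralateral libraries, with an interaction of 2.43 ± 0.48 (limma adjusted p = 0.00240). For miR-410-3p every day 1 ACL library lay below every day 1 contralateral library, so part of its interaction came from day 1, at a log2 fold change of -0.68 ± 0.36 that was not called (limma adjusted p = 0.997).

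**Figure D3:**
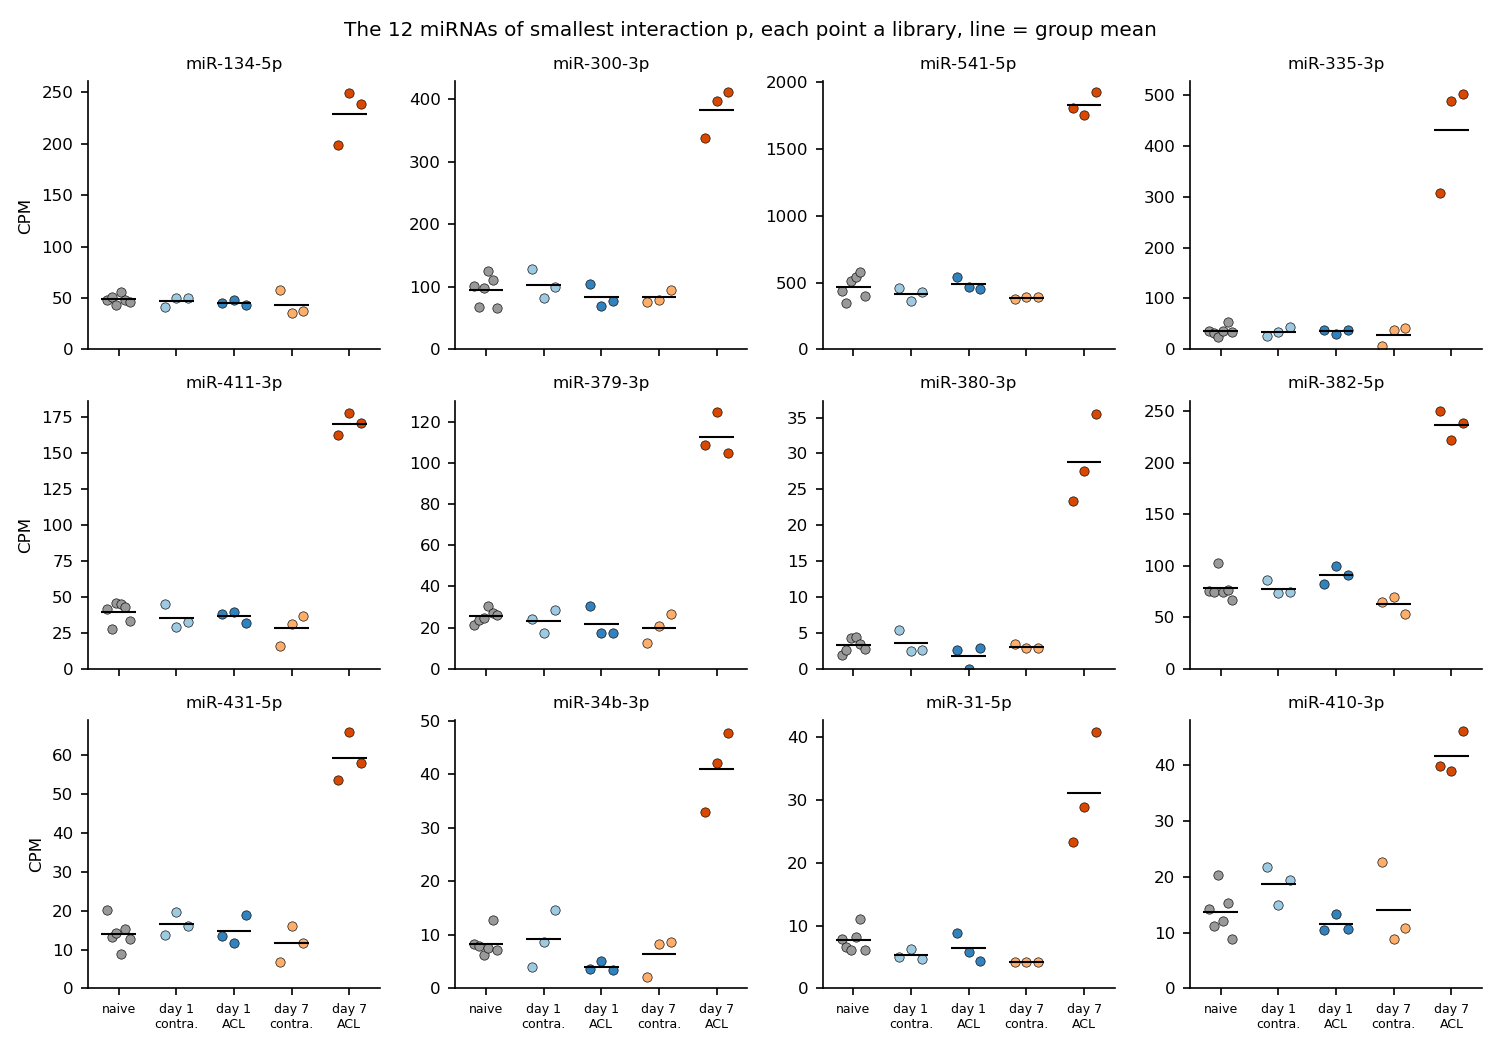
CPM (y axis, from 0) in each library of the 5 groups (x axis) for the 12 miRNAs of smallest interaction p, each point a library and each line a group mean. In each panel the 3 day 7 ACL libraries lie above all 15 others.

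For all 29 called miRNAs the 3 day 7 ACL libraries lay above the other 9 libraries of the comparison, as they did for 13.3% of all miRNAs tested (4.21% lay below), and above all 15 others with the naive ones included, as they did for 12.9%. Day 7 ACL was above day 7 contralateral without overlap for 29 of 29 (17.5% of all tested, and 9.11% lay below). At day 1, ACL was above contralateral without overlap for 0 of 29 (2.34% of all tested) and below it for 1 of 29 (6.31%), which was miR-410-3p. The members were called from these same libraries, so the counts describe them and test nothing.

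The 12qF1 cluster had 48 tested miRNAs among 103 in the table. Their median log2 interaction was 1.90, against 0.02 over all tested and -0.05 over the 378 outside the cluster and miR-335, and 47 of the 48 were positive against 221 of the 428. At day 7 their median injury effect was 1.95 and at day 1 it was 0.02. The summed level of the 48 was 16719 ± 706 CPM (SD, n = 3) in day 7 ACL libraries and 5095 ± 702 in day 7 contralateral ones, 5723 ± 1083 in day 1 ACL, 5298 ± 421 in day 1 contralateral and 5573 ± 394 in naive libraries (n = 6). A position was matched for 45 of them, from 33 hairpins at chr12:109571990-109743795 (GRCm38, 171.8 kb, 32 hairpins on the plus strand and Mir3071 on the minus strand), and 19 of those hairpins gave a call. On chromosome 12 as a whole 21 of 57 located miRNAs were called (36.8%), and the other located calls lay on chromosomes 4, 6, 9 and 11, with miR-199a-5p encoded on 2 chromosomes.

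At the proximal end, the 4 tested arms downstream of Meg3 had a median interaction of 1.59. miR-337-5p was called at 1.95 ± 0.46 (limma adjusted p = 0.0103, chr12:109585818-109585839), and miR-493-3p was not at 2.27 ± 0.71 (limma adjusted p = 0.0614), with a mean of only 3.57 CPM over the 12 libraries. miR-673-3p was at 1.22 ± 0.64 and miR-673-5p at 0.11 ± 0.76.

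In the stretch at Rtl1, a retrotransposon-derived gene that the miRNAs antisense to it are known to silence from the other parental chromosome, 9 arms were tested with a median of 1.40, and 3 were called. Of the 9, 8 are antisense to Rtl1 (median 1.78), and miR-3071-3p, at 0.79 ± 1.02, is annotated on the strand of Rtl1 itself. miR-431-5p (chr12:109590459-109590479), miR-434-5p (chr12:109594528-109594549) and miR-127-3p (chr12:109592888-109592909) all lie opposite an exon of Rtl1. miR-434-5p stood at 2209, 2333 and 2363 CPM in day 7 ACL, 246, 654 and 499.5 in day 7 contralateral, 654, 325 and 945 in day 1 ACL and 539, 649 and 399 in day 1 contralateral libraries, with an interaction of 2.22 ± 0.51 (limma adjusted p = 0.00862). miR-127-3p was the most abundant of the 12qF1 calls, at 4392, 4555 and 3931 CPM in day 7 ACL, 2706, 1439 and 1253 in day 7 contralateral, 1649.7, 1901 and 1769.9 in day 1 ACL and 2024, 1668 and 1822 in day 1 contralateral libraries. Its interaction of 1.40 ± 0.38 was the smallest called (limma adjusted p = 0.0257), and it was no longer called in 4 of the 12 fits that left out 1 library each, those without day 1 contralateral replicate 1, day 7 contralateral replicate 2 or 3, or day 7 ACL replicate 2 (log2 values 1.19 to 1.42).

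miR-136-5p in the same stretch did not follow. It stood at 162, 188 and 167 CPM in day 7 ACL and 124, 171 and 100.2 in day 7 contralateral libraries, but ranged from 11.7 to 456 in day 1 ACL and from 26.1 to 232 in day 1 contralateral libraries. Its interaction was 0.02 ± 1.42, with a 95% interval from -2.95 to 2.99, so neither an equal nor a several-fold larger effect at day 7 was shown. The other arm of its hairpin, miR-136-3p, was at 1.12 ± 0.77. The sign of the miR-136-5p value turned under 10 alternatives.

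The 2 tested arms of the Rian stretch were not called, miR-341-3p at 2.01 ± 0.62 (limma adjusted p = 0.0583) and miR-370-3p at 1.08 ± 0.44 (limma adjusted p = 0.187). miR-370-3p had the highest positive day 1 injury effect among the 48, at 0.91 log2 units, beside 1.98 at day 7.

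The distal stretch from miR-379 to miR-410, part of which lies in the noncoding gene Mirg, held 33 tested arms with a median of 1.92, of which 17 were called and 32 were positive. miR-379-5p (chr12:109709065-109709085) stood at 2102, 2456 and 2494 CPM in day 7 ACL, 996, 455 and 601 in day 7 contralateral, 598, 412 and 704 in day 1 ACL and 598, 555 and 511 in day 1 contralateral libraries, with an interaction of 1.87 ± 0.39 (limma adjusted p = 0.00365). miR-134-5p (chr12:109734145-109734166) and miR-410-3p (chr12:109743764-109743784) lie in exons of Mirg, and miR-541-5p (chr12:109742422-109742446) and miR-409-3p (chr12:109743204-109743225) in its introns. The interactions of the remaining calls were 2.36 ± 0.59 for miR-409-3p, 2.26 ± 0.55 for miR-495-3p, 1.69 ± 0.36 for miR-411-5p, 2.70 ± 0.70 for miR-1193-3p and 1.92 ± 0.55 for miR-381-3p. miR-369-5p at 1.44 ± 0.42 (limma adjusted p = 0.0400) and miR-329-3p at 1.41 ± 0.40 (limma adjusted p = 0.0341) were the calls closest to the threshold. With 1 library left out, miR-1193-3p lost its call without day 1 contralateral replicate 3, day 1 ACL replicate 3 or day 7 contralateral replicate 2 (2.51 to 2.65). miR-381-3p, miR-329-3p and miR-369-5p each lost theirs in 7 of 12 such fits, in which day 1 contralateral replicate 1, day 1 ACL replicate 2, day 7 contralateral replicate 3 and day 7 ACL replicate 2 were common to all, with values of 1.47 to 1.99, 1.27 to 1.44 and 1.20 to 1.55. miR-376b-5p, at -0.10 ± 0.76, was the only negative value of the cluster, and its sign turned under 7 alternatives.

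**Figure D4:**
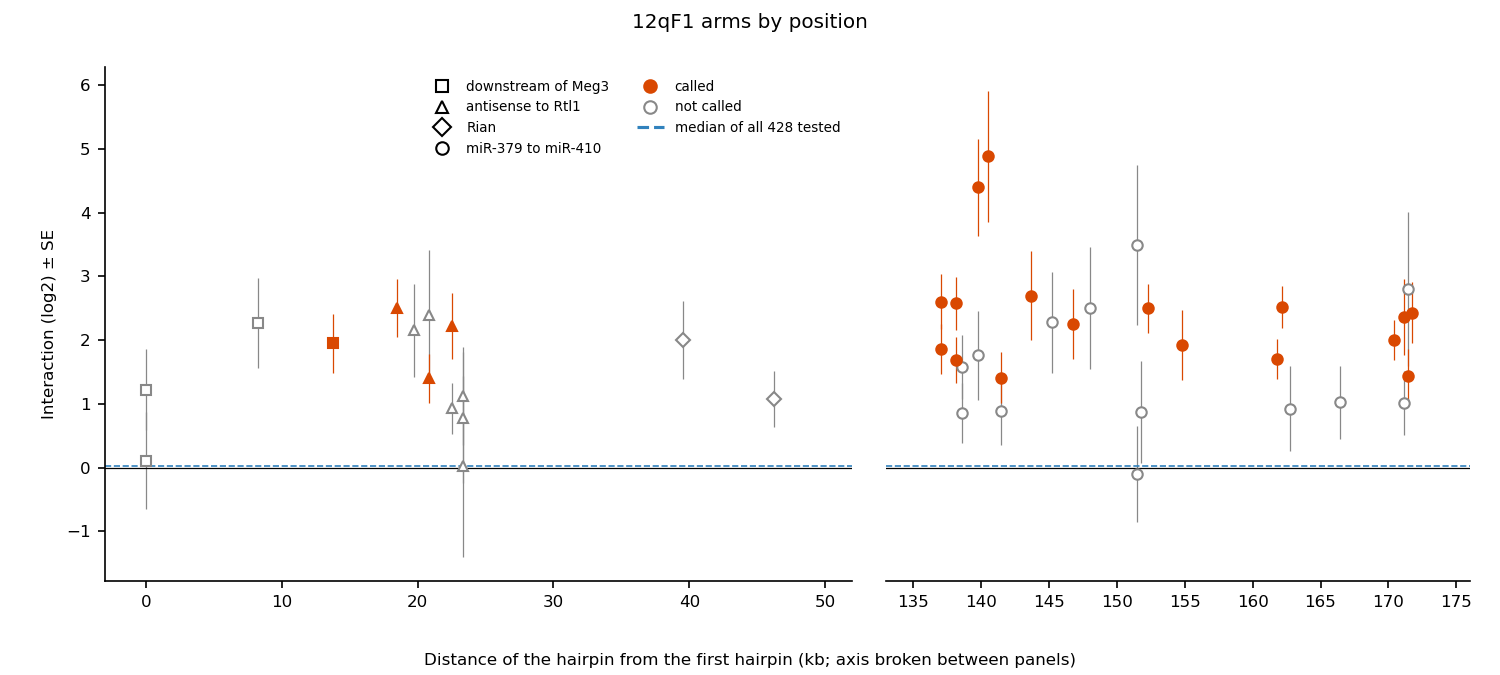
Log2 interaction ± SE (y axis) of the 45 located 12qF1 arms against the distance of their hairpin from the most proximal one (x axis in kb, broken between the panels), filled where called. All but miR-376b-5p are above 0, and calls occur in the Meg3, Rtl1 and miR-379 to miR-410 stretches.

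Of the 27 uncalled members of the cluster, 16 had a mean under 20 CPM over the 12 libraries. The 5 positive values nearest to the threshold were all of this cluster and were miR-341-3p and miR-493-3p (above), miR-299a-3p at 1.57 ± 0.50 (limma adjusted p = 0.0708), miR-376c-3p at 2.62 ± 0.89 and miR-433-3p at 2.16 ± 0.73 (limma adjusted p = 0.104 for both). Over the whole series, both arms were tested for 111 hairpins. For 4 of them (miR-335, miR-34b, miR-379 and miR-411) both arms were called, for 9 a single arm was called, and in all 9 the other arm had a positive value.

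miR-335 comes from an intron of Mest, an imprinted gene expressed from the paternal chromosome. miR-335-3p (chr6:30741354-30741375) had the largest day 7 effect of all miRNAs. It stood at 306, 487 and 501 CPM in day 7 ACL, 6.87, 38.4 and 42.4 in day 7 contralateral, 38.6, 30.2 and 37.9 in day 1 ACL and 26.6, 33.8 and 44.2 in day 1 contralateral libraries, with 23.96 to 52.9 in naive ones. Day 7 contralateral replicate 1 was low, and the other 8 libraries outside day 7 ACL lay between 26.6 and 44.2. The interaction was 4.02 ± 0.63 (limma adjusted p = 0.000396), or 3.41 ± 0.43 without that replicate. miR-335-5p (chr6:30741314-30741336) stood at 45.3, 90.1 and 113 CPM in day 7 ACL, 0.687, 18.3 and 19.5 in day 7 contralateral, 22.5, 8.38 and 17.98 in day 1 ACL and 18.2, 20.7 and 21.4 in day 1 contralateral libraries. Its interaction of 3.48 ± 0.90 (limma adjusted p = 0.0200) was 2.52 ± 0.56 without day 7 contralateral replicate 1 and 4.20 ± 0.95 without replicate 2, and it was not called without day 7 ACL replicate 3 (limma adjusted p = 0.0511).

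The miR-34 family, transcribed under p53 and known for restraining the cell cycle, had 3 of 5 tested arms called and all 5 positive. miR-34b-3p (chr9:51103574-51103595) stood at 33.0, 42.1 and 47.8 CPM in day 7 ACL, 2.06, 8.35 and 8.73 in day 7 contralateral, 3.66, 5.03 and 3.40 in day 1 ACL and 3.95, 8.73 and 14.7 in day 1 contralateral libraries. Its interaction was 3.66 ± 0.67 (limma adjusted p = 0.00116), to which a day 1 effect of -0.94 ± 0.53 contributed. miR-34c-5p stood at 267, 279.7 and 361 CPM in day 7 ACL, 90.7, 40.2 and 67.8 in day 7 contralateral, 58.0, 38.5 and 48.1 in day 1 ACL and 35.5, 52.4 and 69.0 in day 1 contralateral libraries, with an interaction of 2.33 ± 0.47 (limma adjusted p = 0.00264). miR-34b-5p was called at 2.57 ± 0.68, but lost its call without day 1 contralateral replicate 3, day 1 ACL replicate 3, day 7 contralateral replicate 2 or day 7 ACL replicate 3 (2.03 to 2.58). miR-34c-3p at 3.14 ± 1.14 (limma adjusted p = 0.136) and miR-34a-5p at 0.71 ± 0.65 (limma adjusted p = 0.719) were not called. The 95% interval of miR-34a-5p, from -0.65 to 2.06, does not show that it behaved differently from miR-34b-5p, and the difference between them was not tested.

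miR-31-5p (chr4:88910614-88910635), a miRNA studied in bone and joint tissue, stood at 23.4, 29.0 and 40.9 CPM in day 7 ACL and 4.12, 4.17 and 4.16 in day 7 contralateral libraries, and at day 1 at 8.88, 5.86 and 4.37 in ACL and 4.93, 6.19 and 4.69 in contralateral libraries. The day 7 ACL libraries lay above the naive maximum of 11.1, and the 3 day 7 contralateral libraries lay below every other library, the naive ones (from 6.09) included, so a low level there entered the interaction too. The day 1 groups overlapped. Its interaction was 2.67 ± 0.51 (limma adjusted p = 0.00158), and it rested on 17, 64 and 123 counts in day 7 ACL and 6 to 17 counts in the other 9 libraries.

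miR-21a-5p, from the Vmp1 locus (chr11:86584120-86584141), is among the miRNAs most often raised in injured and inflamed tissue and was the most abundant call. It stood at 19836, 25533 and 30656 CPM in day 7 ACL, 7532, 7183 and 11871 in day 7 contralateral, 8263, 4357 and 7409 in day 1 ACL and 6601, 8815 and 7057 in day 1 contralateral libraries. The interaction was 1.75 ± 0.49 (limma adjusted p = 0.0325), and the call was lost without day 1 ACL replicate 2, day 1 contralateral replicate 2 or 3, day 7 contralateral replicate 2, or day 7 ACL replicate 2 or 3 (1.55 to 1.85, highest limma adjusted p 0.0941). miR-21a-3p at 2.16 ± 0.84 and miR-21b at 1.49 ± 0.60 were not called, and reads of miR-21a-5p and miR-21b may not have been told apart.

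Of miR-199 and miR-214, miRNAs of mesenchymal tissue whose main transcript is Dnm3os, 1 of 6 tested arms (5 distinct measurements) was called, miR-199a-5p. It is encoded on chromosome 1 (chr1:162217844-162217866, in an exon of Dnm3os) and again on chromosome 9 (chr9:21496537-21496559, opposite an intron of Dnm2), and reads cannot tell the copies apart. It stood at 14848, 16963 and 21065 CPM in day 7 ACL, 3260.0, 7148 and 9505 in day 7 contralateral, 7675, 6101 and 6784 in day 1 ACL and 7158, 6378 and 7079 in day 1 contralateral libraries. At day 1 the log2 fold change was -0.00 ± 0.28 and at day 7 it was 1.52 ± 0.27, with an interaction of 1.52 ± 0.39 (limma adjusted p = 0.0189). Without day 7 contralateral replicate 1, where it was lowest, the interaction was 1.21 ± 0.28 and still called. Without day 7 ACL replicate 3 it was called only narrowly (limma adjusted p = 0.0481). Of the 26 alternatives, 1 did not call miR-199a-5p, and its lowest value among them was 1.06.

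miR-199a-3p and miR-199b-3p have the same count in every library and are 1 measurement. They stood at 41502, 45785 and 46785 CPM in day 7 ACL, 11949, 20821 and 23766 in day 7 contralateral, 26068, 13622 and 29279.5 in day 1 ACL and 17997, 26888 and 17162 in day 1 contralateral libraries. Although the day 7 ACL libraries were the highest, the day 1 libraries were spread widely, and the interaction of 1.18 ± 0.43 was not called (limma adjusted p = 0.136). miR-214-3p at 1.03 ± 0.39 (limma adjusted p = 0.160) and miR-214-5p at 0.98 ± 0.41 (limma adjusted p = 0.191) were not called either.

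miR-199b-5p was the exception of its list, at -0.45 ± 0.93. Its values were 904, 930.0 and 669.5 CPM in day 7 ACL, 5026, 414 and 595 in day 7 contralateral, 578, 179 and 556 in day 1 ACL and 308, 535 and 260.0 in day 1 contralateral libraries. Day 7 contralateral replicate 1 alone was far above the rest, and without it the value was 0.69 ± 0.61 (limma adjusted p = 0.659).

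Other miRNAs that the study named from its libraries were not called in the interaction. miR-27b-3p, known to target the collagenase gene Mmp13, stood at 20964, 22923 and 22133 CPM in day 7 ACL, 11979.7, 14879 and 15679.8 in day 7 contralateral, 16309.9, 10875 and 17849 in day 1 ACL and 13179, 16943 and 12797 in day 1 contralateral libraries. Its interaction was 0.59 ± 0.33 with a 95% interval from -0.10 to 1.27 (limma adjusted p = 0.385). miR-10a-5p, a Hox cluster miRNA, stood at 8295, 7769 and 5832 CPM in day 7 ACL, 13276, 10043 and 8656 in day 7 contralateral, 10358, 9992 and 10319 in day 1 ACL and 10838, 10574 and 9784 in day 1 contralateral libraries, with -0.52 ± 0.28 (limma adjusted p = 0.373).

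miR-486a-5p, an erythroid miRNA, was lowest in injured cartilage at day 7. It stood at 2506, 2256 and 1690.1 CPM in day 7 ACL, 4355, 4173 and 3230.0 in day 7 contralateral, 3812, 7771 and 6255 in day 1 ACL and 5429.9, 5173 and 6333 in day 1 contralateral libraries. The interaction was -0.90 ± 0.38 (limma adjusted p = 0.191) and was not called.

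No negative interaction was called. The 5 of smallest p were miR-181a-5p at -0.96 ± 0.35 (limma adjusted p = 0.139), miR-187-3p at -1.29 ± 0.48, miR-133a-5p at -1.69 ± 0.64, miR-504-5p at -1.48 ± 0.59 and miR-193b-5p at -1.87 ± 0.77, with adjusted p up to 0.187. miR-181a-5p, a regulator of lymphocyte signalling that chondrocytes express too, stood at 10148, 9442 and 6845 CPM in day 7 ACL, 11726, 18493 and 12569.9 in day 7 contralateral, 12496, 23192 and 17568 in day 1 ACL and 13889, 13579.7 and 15896 in day 1 contralateral libraries. miR-133a-5p, a skeletal muscle miRNA, passed the test at -2.09 when day 1 ACL replicate 2 was left out (limma adjusted p = 0.0240).

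The cartilage miRNAs miR-140 and miR-455 were not called. miR-140-5p stood at 4344, 6039 and 6973 CPM in day 7 ACL, 1912, 4983 and 6916 in day 7 contralateral, 5635, 2760.1 and 4516 in day 1 ACL and 5437, 4093 and 4053 in day 1 contralateral libraries, with an interaction of 0.59 ± 0.54. miR-140-3p, whose counts varied less, was at 0.16 ± 0.31 with a 95% interval from -0.49 to 0.81, which keeps a difference between the days under 2-fold. miR-455-5p was at 0.59 ± 0.43 and miR-455-3p at 0.26 ± 0.67. The values of miR-140-5p and miR-455-3p turned sign without the 2 libraries that stood apart. The miR-29 family, known for silencing collagens and other matrix genes, had 5 negative values of 5 and a median of -0.75, and none was called.

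Of the remaining gene families, none had a call. miRNAs with the names of the Sfmbt2 intron cluster (miR-297, miR-466, miR-467 and miR-669) had 21 positive of 23 tested and a median of 0.28. They were taken by name and not by position, and miR-467h is located on chromosome 9 with no host gene. Several members have the same counts, which leaves 18 distinct measurements, 16 of them positive. The X-linked miR-322, miR-503 and miR-450 cluster had 5 positive of 9 and a median of 0.36. The let-7 family had 13 positive of 19 (12 of 18 distinct) and a median of 0.17, miR-23, miR-27 and miR-24 10 of 11 and 0.22, and the mechanosensitive miR-221 and miR-222 2 of 3 and 0.25. The miR-17/92 group had 11 positive of 20 and a median of 0.14, the inflammatory miR-146 and miR-155 2 of 4 and 0.02, and miR-10 and miR-196 3 of 6 and 0.02. The miR-30 family had 0 positive of 12 and a median of -0.25, and the miR-181 family 1 of 7 and -0.50. These medians stand beside 0.02 over all tested, and the choice of scaling alone moved that value to as much as 0.21, which is as large as several of them.

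**Figure D5:**
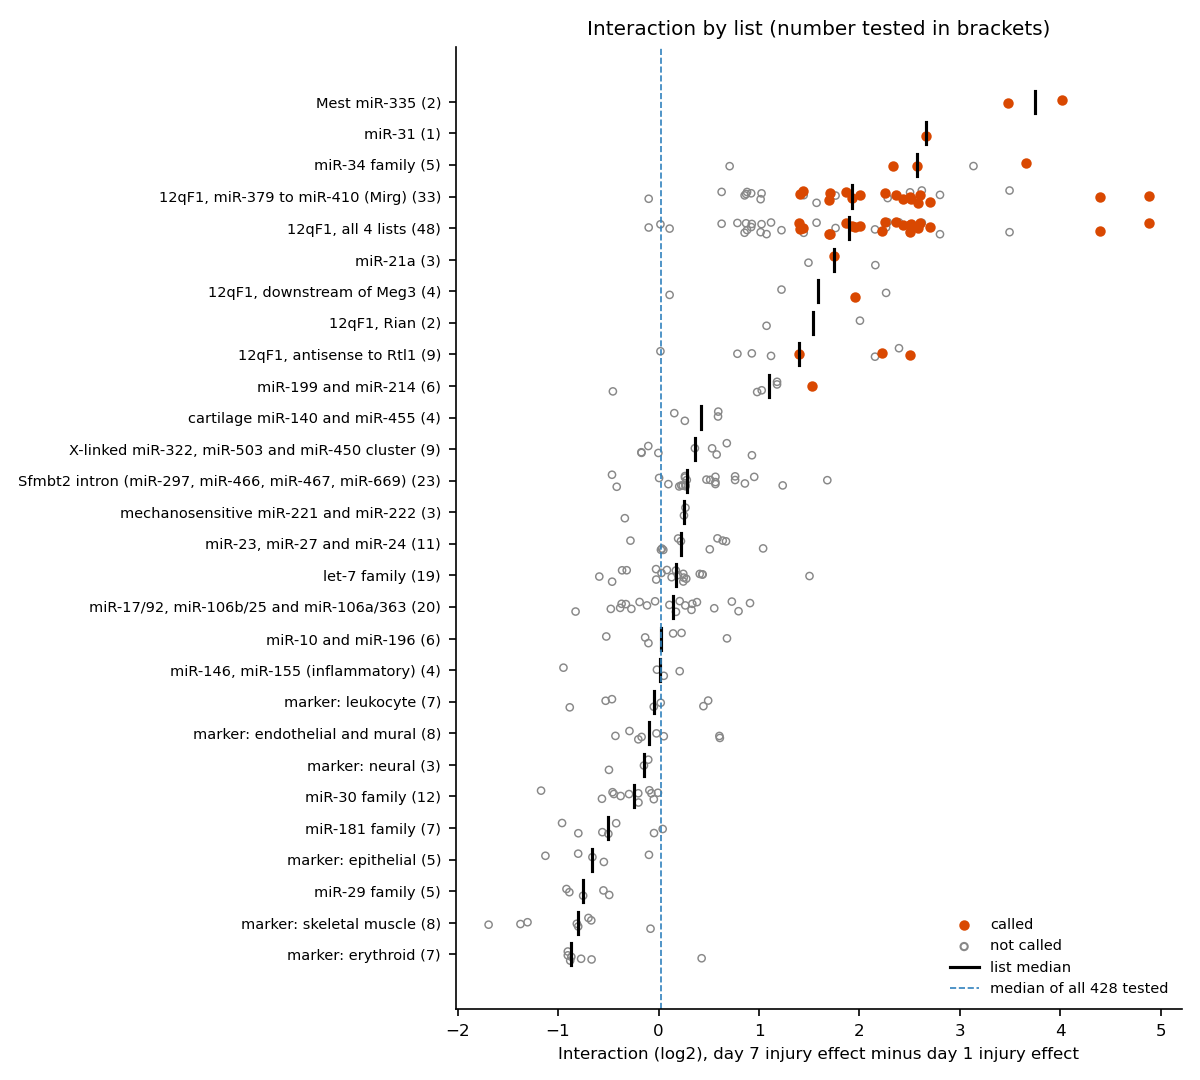
Log2 interaction (x axis) of each tested miRNA by list (rows, number tested in brackets), filled where called, with the list median as a black bar and the median of all 428 as a dashed line. Calls fall in the 12qF1, miR-335, miR-34, miR-31, miR-21a and miR-199 lists, and the medians of the marker lists of other cell types lie below 0.

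Markers of other cell types moved with the interaction in some lists. All 8 skeletal muscle miRNAs tested had a negative value (median -0.81), and their summed level ranged from 79448 to 151211 CPM in day 7 ACL, 154413 to 280436 in day 7 contralateral, 62206 to 313607 in day 1 ACL and 115844 to 200847 in day 1 contralateral libraries. Of 7 erythroid miRNAs 6 were negative (median -0.87), with summed levels of 5081 to 7028 CPM in day 7 ACL, 9282 to 13438 in day 7 contralateral, 10336 to 18452 in day 1 ACL and 13743 to 15456 in day 1 contralateral libraries. miR-486a-5p and miR-486b-5p have the same count in every library, and taken once they leave 6 measurements (5 negative, median -0.82) and sums of 3391 to 4523 CPM in day 7 ACL and 6052 to 9083 in day 7 contralateral libraries. Only equal counts were merged. Pairs with close values still count apart, as miR-486a-3p and miR-486b-3p (-0.88 and -0.87) and the endothelial miR-126a-5p and miR-126b-3p (0.611 and 0.606) do. The 5 epithelial miRNAs were all negative (median -0.66), at 136 to 180 CPM in day 7 ACL and 245 to 413 in day 7 contralateral libraries. The highest of these, 413, was day 7 contralateral replicate 1. At day 1 their sum was 220 to 307 CPM in ACL and 244 to 273 in contralateral libraries. For leukocyte (3 of 7 positive, median -0.05), endothelial and mural (3 of 8, -0.09) and neural (0 of 3, -0.14) miRNAs the medians lay nearer to 0, and each turned positive with scaling factors estimated without 12qF1 and miR-335 (0.14, 0.09 and 0.04). The summed level of the leukocyte miRNAs was lower in day 7 ACL (4393 to 5023 CPM) than in day 7 contralateral libraries (5315 to 11226) without overlap, and at day 1 it was 3883 to 5094 in ACL and 4669 to 5261 in contralateral libraries. None of these 38 marker values passed the test, and their part in the 29 calls was not tested. With the muscle and erythroid miRNAs removed before scaling, all 29 were called. That fit changes the scaling and the set tested but not the counts of the 29, so it does not test which cells they came from.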

How the data were processed

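Small RNA libraries (NEBNext kit) of femoral condyle cartilage were sequenced from 18 mouse samples. The authors ran the nf-core small RNA pipeline, in which reads were trimmed, aligned to the mature sequences of miRBase and counted. The submitters' processing notes list FastQC 0.11.9, Trim Galore 0.6.6, Bowtie 1.3.0 and SAMtools 1.12 and the mouse build GRCm38. The deposited values are raw counts per mature miRNA, and how reads matching several miRNAs were counted is not given in the sources used here. Table rows were matched to samples by library number, since the letters before the number differ between the table and the sample titles.

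Counts were analysed in R 4.3.3 with limma 3.58.1 and edgeR 4.0.16. miRNAs were kept by filterByExpr (minimum count 10, minimum total 15), which left 428 of 1412, scaled by TMM and fitted with limma-voom over all 18 libraries with a mean for each group. The interaction and the 4 pairwise contrasts were tested 2-sided, with Benjamini-Hochberg adjustment over all 428 in each contrast and a threshold of 0.05. The scripts were tested on simulated data. The study blocked on mouse pool with duplicateCorrelation, but the labels name no pool, so libraries entered as independent. Intervals and limits cover counting error or the spread between these libraries only. miRNAs named are all calls, the 5 negative values of smallest p, the next 5 positive ones, those the study named, and members of the small lists or at the ends of lists. Others stand in counts and medians. Alternatives were other scalings, filters, tests (DESeq2 1.42.0 among them), sample sets and covariates, and leaving out each library. The comparison, its members and the lists were chosen with earlier results of these data known. Positions and mature sequences came from RefSeq (GRCm38.p6), matched by name for 338 and 365 miRNAs. Figures were drawn with matplotlib 3.10.9.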

Additional observations from a re-analysis of the deposited data

Results flagged for a closer look

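All 29 miRNAs called in the interaction had an injury effect that differed between the days by the test of that difference, limma's interaction contrast. In the 12qF1 cluster the log2 interactions were 2.52 for miR-134-5p, 2.50 for miR-300-3p, 2.01 for miR-541-5p, 2.58 for miR-411-3p, 2.61 for miR-379-3p, 4.40 for miR-380-3p, 1.71 for miR-382-5p, 2.51 for miR-431-5p, 2.43 for miR-410-3p, 1.87 for miR-379-5p, 4.88 for miR-323-3p, 1.69 for miR-411-5p, 2.22 for miR-434-5p, 1.95 for miR-337-5p, 2.26 for miR-495-3p, 2.36 for miR-409-3p, 2.70 for miR-1193-3p, 1.40 for miR-127-3p, 1.92 for miR-381-3p, 1.41 for miR-329-3p and 1.44 for miR-369-5p. Outside it they were 4.02 for miR-335-3p, 3.48 for miR-335-5p, 3.66 for miR-34b-3p, 2.57 for miR-34b-5p, 2.33 for miR-34c-5p, 2.67 for miR-31-5p, 1.75 for miR-21a-5p and 1.52 for miR-199a-5p.

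The means of the naive libraries do not enter the interaction, but these libraries were part of its fit. Among them, replicate 3 stood far from the other 5 for miR-382-5p at 103 CPM, and replicate 5 for miR-34b-3p at 12.8 CPM. Both were still below every day 7 ACL library. The library total and 20 miRNAs were examined in this way, with miR-199a-3p and miR-199b-3p, which are 1 measurement, both among them. Chance alone sets about 1 in 20 such quantities apart.

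miR-323-5p, the other arm of the hairpin of miR-323-3p, had too few reads to be tested. It was counted in all 3 day 7 ACL libraries and in no other library, with 3 counts in all.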

How the results depend on the processing

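Over 26 alternatives, between 22 and 41 miRNAs were called in the interaction, and all 29 kept a positive sign wherever they were tested. Of them, 20 were called in every alternative that tested them. With only the 12 libraries of the 4 groups, and so no naive ones, 424 miRNAs were tested and 23 called. All 23 were among the 29, and 17 of them belonged to 12qF1. Calls of a smaller effect at day 7 numbered 3 with quality weights (miR-133a-5p, miR-708-5p, miR-708-3p), 1 with the log10 total as a covariate (miR-200c-3p), 0 to 2 with 1 library left out and 3 without the 2 libraries farthest from their groups (miR-133a-5p, miR-30c-5p, miR-708-5p), an alternative added after seeing the data. In day 7 ACL versus contralateral, 38 were called when every library had to hold 10 counts, where only 286 miRNAs were tested, and in day 7 versus day 1 ACL 44. Quality weights gave 109 in the latter, and DESeq2 gave 2 in day 7 versus day 1 contralateral. The cause was not tested for the other moves.

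Among the miRNAs recomputed one by one, the sign turned in uncalled ones only. miR-136-5p was at -0.0052 with DESeq2 size factors, -0.12 with every counted miRNA kept, -0.55 with edgeR, -0.59 with DESeq2, -0.85 with quality weights, -0.077 with 12 libraries and -1.33 without the 2 libraries. miR-140-5p was at -0.062 with quality weights and -0.10 without the 2 libraries, miR-673-5p at -0.046 and -0.10. Without the 2 libraries, miR-199b-5p was at 0.13 and miR-455-3p at -0.19. miR-376b-5p was at 0.093 with scaling factors estimated without 12qF1 and miR-335. With 1 library left out in turn, values ranged from -1.31 to 1.17 for miR-136-5p, from -0.66 to 0.47 for miR-376b-5p, from -0.12 to 0.77 for miR-673-5p, from -1.10 to 0.69 for miR-199b-5p, from -0.16 to 0.91 for miR-455-3p and from -1.15 to 0.019 for miR-29b-3p. No paired analysis was possible because the labels name no mouse pool and give the libraries of a group no number shared with another group. Depth limits the values of miRNAs under 10 counts in a library.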
